A study of Mus musculus with 12 samples.

Results

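Satellite cell marker genes are genes whose RNA or protein is used to recognise the stem cells of skeletal muscle. The 10 genes described here were chosen by symbol from the C2C12 count table of 55385 genes: Pax3, Pax7, Sdc3, Sdc4, Vcam1, Ncam1, Cd34, Cxcr4, Calcr and Spry1. All 10 symbols were found, each under a single identifier, and 8 of them had enough counts to be tested. The series holds 12 libraries, and the 6 used here are total RNA libraries of C2C12, an immortal mouse myoblast line derived from adult muscle that fuses into multinucleate myotubes when differentiated. There were 3 libraries of the undifferentiated control (myoblasts) and 3 libraries of cells after 7 days of differentiation into myotubes, and the labels name no genetic change or drug in either group. The other libraries, small RNA of the embryonic stem cell line E14TG2a, hold no mRNA values for these genes and were not used here. C2C12 is a single line, and the labels do not say whether the libraries of a group are separate cultures. The p-values therefore speak only of the spread between these libraries, part of which may be technical.

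Satellite cells lie between the muscle fibre and its basal lamina and stay quiescent until injury. They are specified by the paired-box transcription factors Pax3 and Pax7, and on activation they express Myf5 and Myod1, divide, and then either differentiate through Myog or return to quiescence. Their surface carries the heparan sulfate proteoglycans syndecan-3 and syndecan-4, the adhesion molecules VCAM1 and NCAM1, the sialomucin CD34, the chemokine receptor CXCR4 and, in quiescent mouse cells, the calcitonin receptor. Sprouty1 dampens receptor tyrosine kinase signalling to ERK and is needed in mice for the return to quiescence.

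Total counts ranged from 18335785 to 54083215 per library. Levels are given as CPM, library-scaled counts with TMM factors, and levels of different genes are compared as TPM, which also divides by gene length. The labels were checked on control genes: Myog rose by 6.08 ± 0.65 (log2 fold change ± SE) and Mki67 fell by 2.20 on the log2 scale, in myotubes against myoblasts. In myotube replicate 1 the summed TPM of 9 muscle differentiation genes was 4160, against 10600 and 5440 in replicates 2 and 3, and that of 8 proliferation genes was 489 against 269 and 120. Without this library the log2 fold change of Mki67 was -3.11. Summed over 8 genes each, endothelial markers were at most 4.92 TPM and blood cell markers at most 5.6 TPM in all 6 libraries. Emcn, Tyrobp and Cd3e were at 0 counts, while Pecam1, Cdh5 and Ptprc were each at most 0.193 CPM. Of the 2 tested genes of each list, Flt1 was at 10.2, 13.9 and 13.1 CPM in myoblasts and was called lower in myotubes (-1.32, adjusted p = 0.0333, edgeR). Egfl7, at most 1.83 CPM, was lower in every myotube library but was not called (-1.08, adjusted p = 0.0529). Kdr, which was not tested, had 19, 20 and 7 counts in myoblasts and 0 in each myotube library. Cd68, at 1.14 to 2.59 CPM, was not called. Csf1r, at most 1.12 CPM, was called higher (2.22, adjusted p = 0.0359), though not with the replicate block (0.0512). The calls of Flt1 and Csf1r were each lost without any of 4 single libraries, with adjusted p up to 0.0991 and 0.123. Fibro-adipogenic markers rose in 5 of 7 tested genes (Pdgfra, Dpt, Pi16, Cd248 and Lum), beside 20.5% of all genes. Ly6a and Smoc2 were not called, and the median log2 fold change of the list was 2.12. In bulk RNA, fewer cells that express a gene and less of its RNA per cell cannot be told apart.

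Of the 8 tested marker genes, Spry1 and Ncam1 rose, Sdc3 fell, and Pax7, Sdc4, Vcam1, Cd34 and Cxcr4 did not pass the test (edgeR quasi-likelihood test, adjusted p under 0.05). Across the 15932 genes tested, 40.1% passed, 20.5% higher and 19.6% lower, so 3 of 8 is close to the share of all genes. The groups did not overlap for these 3 genes, Spry1, Ncam1 and Sdc3, against 55.9% of all genes (28.7% higher and 27.2% lower in myotubes). Of the 2 genes that were not tested, Pax3 was at the limit of detection and Calcr had 0 counts in every library. With the replicate number as a block, Pax7 was also called lower (adjusted p = 0.0381, edgeR), against 0.547 without the block. Same-numbered libraries deviated together (correlations of 0.232, 0.189 and 0.17), but a differently numbered pair, myoblast 3 with myotube 2, did so more (0.358).

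**Figure D1:**
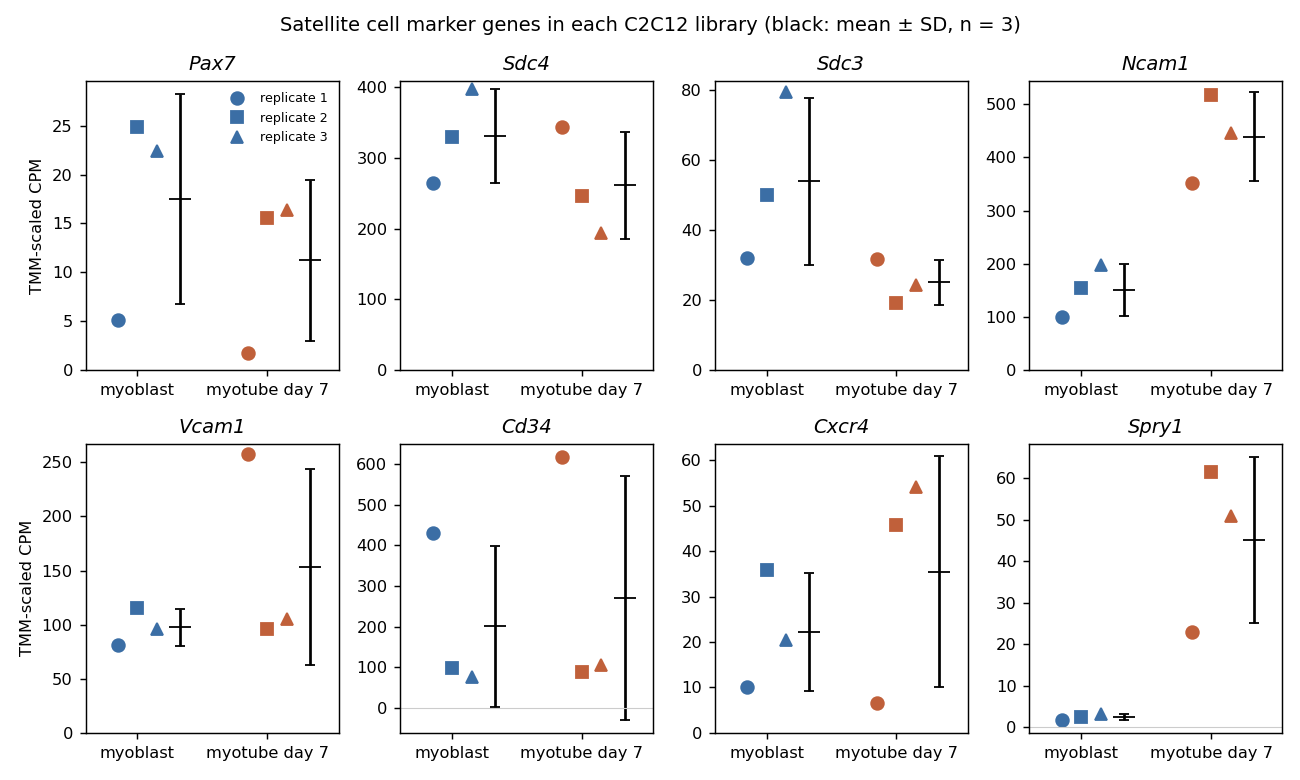
TMM-scaled CPM (vertical axes, from 0) of the 8 tested marker genes in each library, by group (horizontal axes), with the symbol shape giving the replicate number and black bars the mean ± SD of 3 libraries. Spry1 and Ncam1 are higher in every myotube library, and Sdc3 is lower in every one. In both groups replicate 1 is the lowest library for Pax7 and Cxcr4 and the highest for Cd34.

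The upstream sequences of the tested members that passed were examined for E-boxes, the letters CANNTG to which myogenic basic helix-loop-helix factors bind. RefSeq sequence of build GRCm38.p6 was at hand for Spry1 and Sdc3, which moved in opposite directions. Both are shown 5′ to 3′ on the gene's strand, as the 250 bases before the annotated start, with CANNTG in capitals (the motif reads the same on both strands). Spry1 lies on chromosome 3 and its window is chr3:37639697-37639946, plus strand. Sdc3 lies on chromosome 4 and its window is chr4:130792287-130792536, plus strand.
Spry1: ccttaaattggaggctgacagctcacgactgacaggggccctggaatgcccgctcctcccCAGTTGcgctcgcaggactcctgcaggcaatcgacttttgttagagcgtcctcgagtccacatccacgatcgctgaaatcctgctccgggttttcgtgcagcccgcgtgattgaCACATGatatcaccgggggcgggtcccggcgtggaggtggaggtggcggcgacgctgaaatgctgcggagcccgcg
Sdc3: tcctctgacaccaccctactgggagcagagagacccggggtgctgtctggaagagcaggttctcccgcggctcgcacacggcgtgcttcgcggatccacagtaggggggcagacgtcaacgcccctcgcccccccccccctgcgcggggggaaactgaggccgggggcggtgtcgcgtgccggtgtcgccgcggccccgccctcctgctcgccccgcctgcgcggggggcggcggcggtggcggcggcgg
The Spry1 window held 2 matches, beginning 190 and 76 bases before the start, and the Sdc3 window held 0. The windows of Pax7, Sdc4, Cd34 and Cxcr4, not called over all libraries, also held 0. That of Calcr, a gene without counts here, held 1. Of 32851 windows of this length in the RefSeq table, 66.2% held at least 1 match, and 13.0% held the form CAGCTG, which neither window contained. The GC content was 62.4% for Spry1 and 76.4% for Sdc3. These letters describe the windows and were not tested as binding sites.

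Pax7 (ENSMUSG00000028736.13, chromosome 4, 139737059 to 139833530 in RefSeq GRCm38.p6) encodes the transcription factor that satellite cells need to persist after birth. It was at 5.16, 24.9 and 22.4 CPM in myoblast replicates 1 to 3 and at 1.74, 15.6 and 16.4 CPM in the myotube replicates. Replicate 1 was the lowest library in each group, by 4.34-fold against the nearer of the others in myoblasts and 8.96-fold in myotubes, and the groups overlapped. Over all libraries the log2 fold change was -0.64 ± 0.80 (SE; adjusted p = 0.547, edgeR; 95% interval -2.48 to 1.21), which was not called. Within the pairs of the same replicate number it was lower in the myotube library 3 of 3 times, by log2 differences of -1.57, -0.68 and -0.45. With the replicate number as a block the log2 fold change was -0.86 ± 0.27 (adjusted p = 0.0381), in a fit that called 43.2% of all genes, 20.9% as lower and 22.4% as higher. Without replicate 1 in both groups, a setting chosen after seeing the data, it was -0.57 (adjusted p = 0.0189). That fit, on 2 libraries against 2, called 56.8% of all genes, 29.1% as higher and 27.6% as lower.

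Pax3 (ENSMUSG00000004872.15, chromosome 1, 78101267 to 78197136), the paralog that drives the muscle progenitors of the embryo, had 1, 1 and 2 counts in the myoblast libraries. It had 0 counts in each myotube library, so no fold change was computed. The 4 myoblast counts carry a 95% Poisson interval of 1.09 to 10.2 counts, which covers counting error only. Per length, Pax7 made up 99.7% ± 0.155 of the sum of both paralogs in myoblasts and 100% in each myotube library (SD, n = 3; exact permutation test, two-sided p = 0.1, the smallest that 3 against 3 libraries can give). The difference in share rests on the 4 Pax3 counts alone, so this test cannot show a change in composition. Other relatives were also counted, with mean myoblast levels of 0.234 TPM for Pax6 and 0.368 TPM for Pax8, beside 9.36 TPM for Pax7. Pax8 had 36, 32 and 18 counts in myoblasts and 0 in each myotube library. It was called lower (log2 fold change -7.59, adjusted p = 0.00198, edgeR).

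The early myogenic factors that act after Pax7 were lower or not called in the same libraries. Myf5, a gene that Pax7 activates in mouse satellite cells, was at 22.9, 50.3 and 39.0 CPM in myoblasts and 8.89, 11.7 and 12.5 CPM in myotubes, and fell by 1.76 ± 0.30 on the log2 scale (adjusted p = 0.0029, edgeR). Myod1, the myoblast determination factor, was at 35.8, 96.8 and 85.4 CPM in myoblasts and 15.3, 69.6 and 68.8 CPM in myotubes, again lowest in replicate 1 of each group. As for Pax7, the change of Myod1 passed with the block (-0.67, adjusted p = 0.0457) and without replicate 1 in both groups (-0.40, adjusted p = 0.0423), and not over all 6 libraries (-0.50, adjusted p = 0.502). The setting without replicate 1 was chosen after seeing the data. Myf5 and Myod1 were named after their values were seen.

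Of 16 genes listed as PAX family members and cofactors, 12 were tested, 3 rose and 5 fell, beside 20.5% and 19.6% of all genes. The median log2 fold change of the list was -0.53 against 0.06 for all tested genes. This median was -0.26 without myotube replicate 1, -0.13 with a mean count of at least 50 and -0.16 without replicate 1 in both groups. Carm1, the arginine methyltransferase that modifies PAX7 in mouse satellite cells, was at 86.4 ± 16.9 CPM in myoblasts and 40.4 ± 10.7 CPM in myotubes (SD, n = 3). It fell by 1.10 ± 0.25 on the log2 scale (adjusted p = 0.01, edgeR). Ash2l, a subunit of the histone H3K4 methyltransferase complexes, fell by 0.71 ± 0.18 on the log2 scale, a call that needed myoblast replicates 2 and 3 and myotube replicate 3 (adjusted p = 0.0613, 0.0573 and 0.0561 when each was absent). Foxo3, a forkhead factor linked to quiescence, rose by 1.17 ± 0.18, and its relative Foxo4 by 0.80 ± 0.21. The call of Foxo4 was lost without myoblast replicate 3 (0.0527), without myotube replicate 3 (0.0562) and with scaling by library size alone (0.0512). Pax1, Pax2 and Pax9 had 0 counts in all libraries.

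Sdc4 (ENSMUSG00000017009.3, chromosome 2, 164424247 to 164443188), a syndecan that helps cells respond to FGF2, was at 265, 329 and 398 CPM in myoblasts and 344, 245 and 194 CPM in myotubes. The groups overlapped, with myotube replicate 1 above the lowest 2 myoblast libraries. The log2 fold change was -0.34 ± 0.26 (SE; adjusted p = 0.319, edgeR; 95% interval -0.93 to 0.26), which was not called. Without replicate 1 in both groups, a setting chosen after seeing the data, it was -0.73 (adjusted p = 0.00819). That fit called 56.8% of all genes. By pair the difference was 0.38, -0.42 and -1.03 on the log2 scale.

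Sdc3 (ENSMUSG00000025743.14, chromosome 4, 130792537 to 130826318), the syndecan that in mice takes part in Notch processing, was at 32.2, 50.2 and 79.7 CPM in myoblasts and 31.8, 19.2 and 24.3 CPM in myotubes. Every myotube library was below every myoblast library, but myoblast replicate 1 and myotube replicate 1 were nearly level. It fell 2.15-fold, which is -1.10 ± 0.34 on the log2 scale (SE; adjusted p = 0.0325, edgeR). The call was lost without myoblast replicate 2 (adjusted p = 0.0713), myoblast replicate 3 (0.103), myotube replicate 2 (0.0836) or myotube replicate 3 (0.076). Without replicate 1 in both groups, a setting chosen after seeing the data, the log2 fold change was -1.59 (adjusted p = 0.000721).

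The other syndecans moved the opposite way. Sdc2 was at 149, 216 and 209 CPM in myoblasts and 822, 774 and 841 CPM in myotubes, a log2 fold change of 2.09 ± 0.22 (adjusted p = 0.000346, edgeR). Sdc1 rose by 0.81 ± 0.22 on the log2 scale, a call kept without myotube replicate 1 and lost without any other library. For Sdc1 the adjusted p was 0.0508, 0.0511 and 0.0648 without myoblast replicates 1, 2 and 3, and 0.075 and 0.0697 without myotube replicates 2 and 3. Per length, Sdc4 made up 52.7%, 50.6% and 55.8% of the summed syndecan TPM in the myoblast libraries and 30.6%, 22.7% and 18.4% in the myotube libraries. The share of Sdc2 was 22.2% ± 1.58 in myoblasts and 54.0% ± 3.08 in myotubes (SD, n = 3). Sdc3 was the scarcest of the family, at 3.59% ± 1.05 and 0.980% ± 0.224. For each of Sdc2, Sdc3 and Sdc4 the shares of the groups did not overlap, with an exact two-sided permutation p = 0.1, the smallest possible here, while Sdc1 stood at 21.2% ± 2.60 and 21.1% ± 5.06 (p = 0.9). The most abundant syndecan by length was therefore Sdc4 in each myoblast library and Sdc2 in each myotube library.

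**Figure D2:**
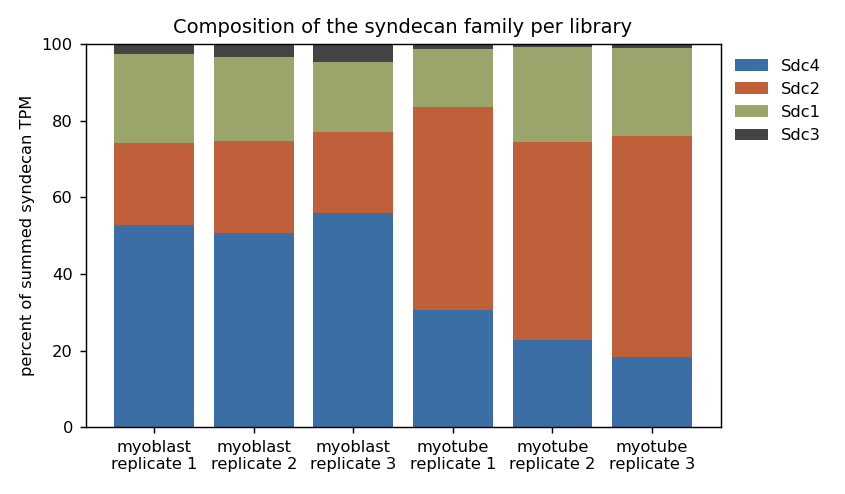
Percent of the summed TPM of Sdc1, Sdc2, Sdc3 and Sdc4 (vertical axis) in each of the 6 libraries (horizontal axis), as stacked bars. Sdc4 holds the largest part of the myoblast bars, from 50.6% to 55.8%, and Sdc2 the largest part of the myotube bars.

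Of 22 genes listed as the other syndecans, the glypicans and the enzymes of heparan sulfate, 17 were tested. Of these 6 rose and 0 fell, beside 20.5% and 19.6% of all genes, with a median log2 fold change of 0.29. Besides Sdc1 and Sdc2 the risers were Gpc6, Ext1, Hs3st1 and Sulf2. Ext1 encodes a polymerase of the heparan sulfate chain and Sulf2 an enzyme that trims its sulfate groups. Sulf2 was at 150, 42.0 and 46.7 CPM in myotubes, and its log2 fold change of 1.48 (adjusted p = 0.0433, edgeR) was 0.61 without myotube replicate 1. Its call was lost with the replicate block (adjusted p = 0.0505), without any single myoblast library (0.0754 to 0.137), with library size scaling (0.0673), with limma-voom (0.0641) and with no filter (0.2). That of Hs3st1 was lost with no filter (0.121), and its log2 fold change of 3.60 was 5.63 without myoblast replicate 1.

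Ncam1 (ENSMUSG00000039542.16, chromosome 9, 49502129 to 49799393), the neural cell adhesion molecule found on satellite cells and on newly formed or denervated fibres, was at 99.4, 155 and 197 CPM in myoblasts. In myotubes it was at 351, 518 and 446 CPM, with every library above every myoblast library. It rose 2.91-fold, which is 1.54 ± 0.28 on the log2 scale (SE; adjusted p = 0.00398, edgeR), and stayed called when any single library was left out, with values from 1.30 to 1.77. By pair the differences were 1.82, 1.74 and 1.18.

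Vcam1 (ENSMUSG00000027962.14, chromosome 3, 116110020 to 116129688), an immunoglobulin family adhesion molecule that marks mouse satellite cells, was at 81.4, 116 and 95.8 CPM in myoblasts and 258, 96.3 and 106 CPM in myotubes. Only myotube replicate 1 was above the myoblast range. The log2 fold change was 0.65 ± 0.38 (SE; adjusted p = 0.199, edgeR; 95% interval -0.22 to 1.52), and 0.03 without that library. The summed TPM of 8 fibro-adipogenic markers was also highest in myotube replicate 1, at 1110 against 268 and 153 in the other myotube libraries. It was 121 to 233 in myoblasts. Most of each sum was Ly6a, which was not called (adjusted p = 0.124, edgeR). Ly6a was at 167, 223 and 114.5 TPM in myoblasts and 595, 205 and 113 TPM in myotubes. Lum added 425 TPM in myotube replicate 1. The part of these markers in the Vcam1 value was not tested.

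The integrin genes whose products bind VCAM1 did not move together: Itga4 and Itga9 rose from low myoblast levels, Itgb7 fell, and Itgb1 was not called. Itga4, the alpha-4 subunit of the integrin VLA-4, was at 0.902, 1.17 and 0.938 CPM in myoblasts and 45.2, 24.2 and 32.6 CPM in myotubes, a log2 fold change of 5.08 ± 0.31 (adjusted p = 5.54e-05, edgeR). Itga9, whose product also binds VCAM1, was counted 4, 3 and 1 times in the myoblast libraries against 42, 272 and 182 times in the myotube libraries, and rose by 6.67 ± 0.84 on the log2 scale (adjusted p = 0.000795). It was named after its value was seen. Itgb7, whose product pairs with alpha-4 in another VCAM1-binding integrin, was at 32.5, 35.8 and 26.8 CPM in myoblasts and 0.541, 0.196 and 0.116 CPM in myotubes, a log2 fold change of -6.73 ± 0.45 (adjusted p = 7.57e-05), or -7.57 without myotube replicate 1. Itgb1, the beta subunit of VLA-4, was at 973 ± 374 CPM in myoblasts and 1359 ± 69.8 CPM in myotubes (SD, n = 3), with a log2 fold change of 0.48 that was not called (adjusted p = 0.225, edgeR). On the side of NCAM1, the polysialyltransferase gene St8sia2, also named after its value was seen, rose by 3.68 ± 1.01 (adjusted p = 0.0216). The adjusted p was 0.0581 without myoblast replicate 3, 0.0565 without myotube replicate 2 and 0.0584 with no filter on low counts, and the value was 3.05 and 4.29 without myoblast replicates 1 and 2. St8sia2 was low in replicate 1 of both groups, at 0.0334 CPM in myoblasts and 0.889 CPM in myotubes, against 0.511 and 0.469, and 6.00 and 5.57, in replicates 2 and 3.

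Of 14 listed partners of VCAM1 and NCAM1, 12 were tested, 4 rose and 5 fell, beside 20.5% and 19.6% of all genes. The median log2 fold change of the list was -0.38. Gfra1, the GDNF co-receptor that can signal through NCAM1, rose by 1.77 ± 0.57 (adjusted p = 0.0385, edgeR). Its adjusted p was 0.102 and 0.121 without myoblast replicates 1 and 3, and 0.108 and 0.104 without myotube replicates 2 and 3. The call was also lost with library size scaling (0.0556), limma-voom (0.059) and no filter on low counts (0.203), and was kept with the block (0.00499). Ezr (ezrin), which ties membrane proteins such as VCAM1 to actin, was at 316 ± 32.0 CPM in myoblasts and 73.2 ± 5.89 CPM in myotubes (SD, n = 3), and fell by 2.11 ± 0.18 on the log2 scale (adjusted p = 0.000166). Its relative Rdx (radixin) fell by 0.67 ± 0.21 on the log2 scale, with an adjusted p of 0.111 and 0.116 when myoblast replicates 2 and 3 were absent, 0.113 when myotube replicate 3 was, and 0.0505 with the authors' library factors.

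Cd34 (ENSMUSG00000016494.9, chromosome 1, 194938821 to 194961292), a sialomucin of quiescent satellite cells and of blood and vessel progenitors, varied more between replicate numbers than between groups. It was at 429, 96.8 and 74.7 CPM in myoblasts and 618, 88.6 and 106 CPM in myotubes. Replicate 1 was the highest library in each group, by 4.44-fold against the next in myoblasts and 5.81-fold in myotubes. The log2 fold change was 0.44 ± 0.89 (SE; adjusted p = 0.713, edgeR; 95% interval -1.61 to 2.48), and 0.30 ± 0.20 with the replicate block (adjusted p = 0.253). Leaving out a single replicate 1 library turned the value to 1.65 (without the myoblast library) or -1.08 (without the myotube library), and leaving out both gave 0.18. Endothelial and blood cell markers were near 0 in these libraries, with summed TPM of 3.21 and 5.18 in myoblast replicate 1 and of 2.51 and 3.40 in myotube replicate 1. Fibro-adipogenic markers, whose cell type also carries CD34, summed to 173 TPM in myoblast replicate 1, within the myoblast range of 121 to 233, and to 1110 TPM in myotube replicate 1 against 268 and 153 in the others. Ly6a alone was 167 TPM of the 173, and Ly6a and Lum were 595 and 425 TPM of the 1110. The part of these markers in the Cd34 values was not tested. The gene Gm16897, which overlaps the locus in RefSeq, had at most 14 counts in a library.

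Cd34 has 2 close relatives, and both changed with differentiation. Podxl (podocalyxin) was at 14.9, 28.0 and 35.9 CPM in myoblasts and 0.812, 1.83 and 2.26 CPM in myotubes, a log2 fold change of -4.02 ± 0.47 (adjusted p = 0.000576, edgeR). Podxl2 (endoglycan) rose from 3.34 ± 0.673 to 13.6 ± 1.32 CPM (SD, n = 3), by 2.01 ± 0.26 on the log2 scale (adjusted p = 0.000803). Selp, the gene of the sialomucin-binding adhesion molecule P-selectin, was counted 184, 260 and 123 times in the myoblast libraries against 5, 5 and 4 times in the myotube libraries, and fell by 4.69 ± 0.49 (adjusted p = 0.000346). With 1 riser and 2 that fell, these were all the called genes among 6 tested of 9 listed, beside 20.5% and 19.6% of all genes.

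Cxcr4 (ENSMUSG00000045382.6, chromosome 1, 128588199 to 128592299), the receptor that guides myogenic cells toward its ligand CXCL12, was at 10.1, 35.9 and 20.4 CPM in myoblasts and 6.49, 45.7 and 54.3 CPM in myotubes. Replicate 1 was the lowest library in each group, as for Pax7, by 2.01-fold in myoblasts and 7.04-fold in myotubes. The log2 fold change was 0.68 ± 0.72 (SE; adjusted p = 0.47, edgeR; 95% interval -0.97 to 2.33). The block gave 0.39 (adjusted p = 0.424). Leaving out replicate 1 in both groups, a setting chosen after seeing the data, gave 0.82 (adjusted p = 0.0221). Its ligand gene Cxcl12, named after its value was seen, was at 84.0, 50.6 and 52.3 CPM in myoblasts and 466, 148 and 186 CPM in myotubes. Every myotube library exceeded every myoblast library, with replicate 1 highest in each group, and the log2 fold change was 2.10 ± 0.45 (adjusted p = 0.00835). It was 1.39 without myotube replicate 1, and the call was lost when low counts were not filtered (adjusted p = 0.0527). Ackr3, the scavenger receptor of CXCL12, was at 50.8 ± 9.22 CPM in myoblasts and 26.7 ± 11.2 CPM in myotubes (SD, n = 3). Its log2 fold change of -0.93 ± 0.33 was not called (adjusted p = 0.0546), but the replicate block gave a call (-1.02, adjusted p = 0.0103). Its call was also gained without myotube replicate 1 (-0.64, adjusted p = 0.0261) or 3 (-1.16, 0.0496) and with other scalings or tests given in the closing section.

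Calcr (ENSMUSG00000023964.15, chromosome 6, 3685678 to 3764713), the calcitonin receptor of quiescent mouse satellite cells, had 0 counts in each of the 6 libraries. A count of 0 allows at most 3 counts, or 0.0501 to 0.174 CPM depending on the library, for counting error only. The microRNA genes Mir489 and Mir653, which lie within the Calcr locus, also had 0 counts each, in libraries not made to capture small RNAs. The relative Calcrl, a receptor of the same family, was at 19.4 ± 8.78 CPM in myoblasts and 10.8 ± 1.68 CPM in myotubes (SD, n = 3) and was not called (-0.85, adjusted p = 0.0804, edgeR), though it was without myoblast replicate 1 (-1.16, 0.014), with scaling by library size alone (0.0467) and without a filter on low counts (0.0316). Ramp3, a protein that pairs with both receptors, fell from 2.72, 1.02 and 0.610 CPM in myoblasts to 0.116, 0.130 and 0.0580 CPM in myotubes. Its log2 fold change was -3.75 ± 0.74 (adjusted p = 0.0054), or -2.92 without myoblast replicate 1.

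Collagen V, which binds the calcitonin receptor of mouse satellite cells, rose in all 3 of its chains. Col5a2 was at 796, 756 and 1083 CPM in myoblasts and 3824, 2501 and 2574 CPM in myotubes, a log2 fold change of 1.76 ± 0.29 (adjusted p = 0.00231, edgeR). Col5a1 was at 1543, 912 and 780 CPM in the myotube libraries, and rose by 1.92 ± 0.33 (adjusted p = 0.00311). Both were highest in myotube replicate 1, as was the summed TPM of the fibro-adipogenic markers, whose part in these values was not tested. Without that library both stayed called, and Col5a2 was at 1.51 on the log2 scale. Of 25 genes listed for the CXCR4 and calcitonin receptor axes, 19 were tested. Of these 7 rose and 2 fell, beside 20.5% and 19.6% of all genes, with a median log2 fold change of 0.24. The other gene that fell was Crcp, whose product couples to calcitonin-family receptors and is also an RNA polymerase III subunit, by 0.54 ± 0.16 on the log2 scale. Its adjusted p of 0.0274 was 0.0677 and 0.088 without myoblast replicates 2 and 3, 0.065 and 0.0852 without myotube replicates 2 and 3, and 0.0596 when low counts were not filtered.

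**Figure D3:**
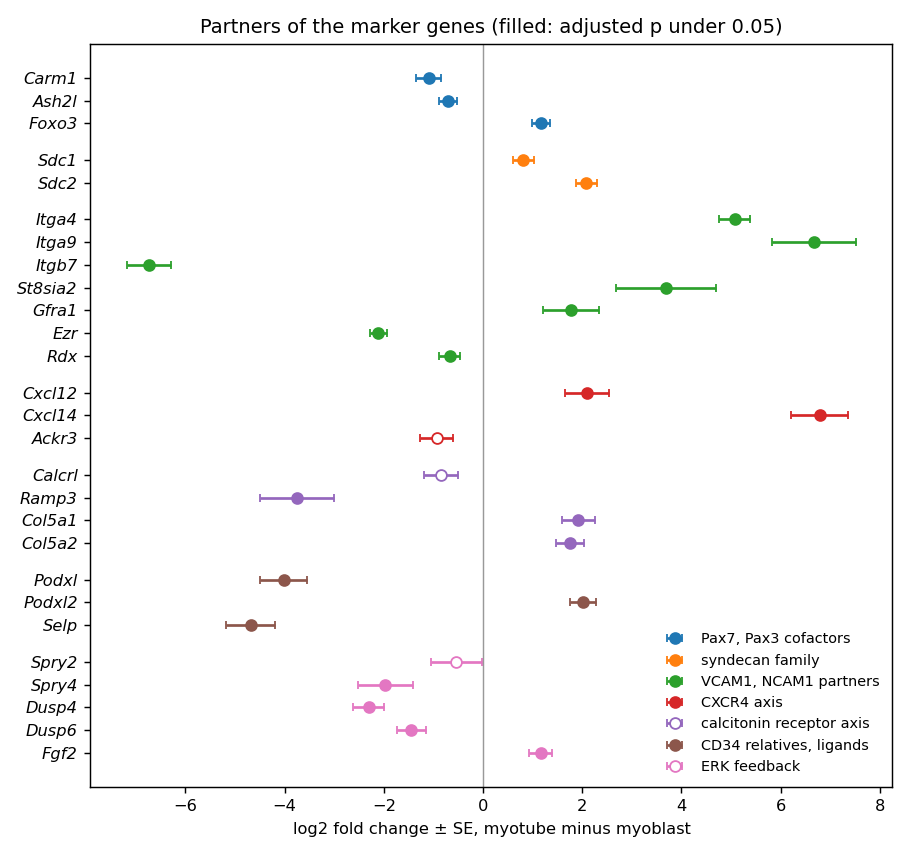
Log2 fold change ± SE of myotubes minus myoblasts (horizontal axis, 3 libraries per group) for a selection of partner genes of the markers (vertical axis), coloured by list, with filled points where the adjusted p was under 0.05. Of the genes plotted, Cxcl14 (6.79) and Itga9 (6.67) lie farthest to the right and Itgb7 (-6.73) farthest to the left. Cxcl14, named after its value was seen, had only 4, 3 and 6 counts in the myoblast libraries, and Itga9 4, 3 and 1. Without myoblast replicate 3 the value of Cxcl14 was 7.49.

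Spry1 (ENSMUSG00000037211.12, chromosome 3, 37639947 to 37644599), the feedback inhibitor of receptor tyrosine kinase signalling, showed the largest change of the 8 tested markers. It was at 1.81, 2.46 and 3.28 CPM in myoblasts and 22.9, 61.6 and 51.0 CPM in myotubes, so that the lowest myotube library was well above the highest myoblast library. It rose 18.2-fold, which is 4.18 ± 0.42 on the log2 scale (SE; adjusted p = 0.000335, edgeR). The call was kept when any single library was left out, with values from 3.85 to 4.50, and with the replicate block (4.09). Myotube replicate 1, with the lowest Spry1 of its group, was also the myotube library with the lowest summed level of differentiation genes, and the part of that in the Spry1 value was not tested.

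Neither Spry2 nor Spry4, its relatives, was called higher. Spry2 was at 26.3, 58.5 and 78.3 CPM in myoblasts and between 15 and 52.9 CPM in myotubes and was not called (-0.54, adjusted p = 0.422, edgeR; both Spry2 and Spry4 were named after their values were seen). Spry4 was at 8.19, 11.7 and 22.8 CPM in myoblasts and 1.35, 4.73 and 4.81 CPM in myotubes, a log2 fold change of -1.97 ± 0.55 (adjusted p = 0.0236, or 0.083 without myoblast replicate 3). Of 26 genes listed as Sprouty, Spred and ERK feedback genes with their growth factors and receptors, 23 were tested. Of these 2 rose and 5 fell, beside 20.5% and 19.6% of all genes, with a median log2 fold change of -0.09. The ERK phosphatase genes Dusp4 and Dusp6 fell by 2.31 ± 0.31 and 1.45 ± 0.30 on the log2 scale (adjusted p = 0.00103 and 0.00659). Fgf2, a growth factor that keeps myoblasts dividing, rose from 13.2 ± 3.82 to 29.6 ± 2.45 CPM (SD, n = 3), by 1.17 ± 0.23 on the log2 scale. Fgfr3 rose by 2.39 ± 0.58, a call lost without myoblast replicate 2 (0.0536).

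**Figure D4:**
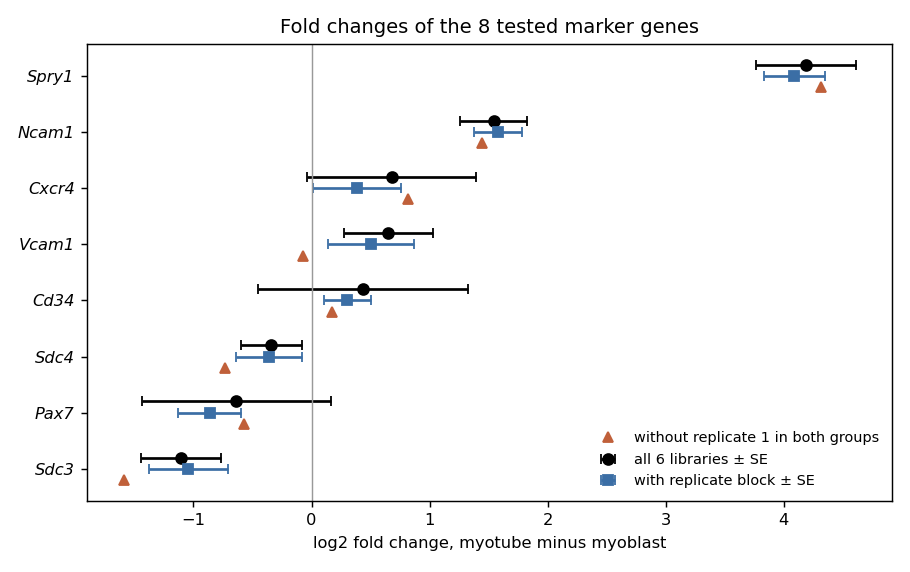
Log2 fold change of myotubes minus myoblasts (horizontal axis) of the 8 tested marker genes (vertical axis), from all 6 libraries (black circles ± SE), with the replicate number as a block (blue squares ± SE) and without replicate 1 in both groups (orange triangles, 2 libraries per group). Spry1 and Ncam1 lie to the right of 0 in each fit, and the SE of Pax7 is 0.80 without the block and 0.27 with it.

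By length-scaled level Sdc4 had the highest mean of the 10 markers in both groups. In myoblasts it stood at 390 ± 121 TPM, above the range of every other marker. Below it Cd34 (73.5 ± 62.1 TPM), Ncam1 (52.8 ± 22.2 TPM), Cxcr4 (38.1 ± 25.7 TPM), Vcam1 (33.1 ± 10.1 TPM) and Sdc3 (27.5 ± 14.3 TPM) followed, and each overlapped the next in its range over 3 libraries (SD, n = 3). Pax7 (9.36 ± 6.30 TPM) overlapped Sdc3 above it and Spry1 (2.62 ± 1.02 TPM) below it, and Pax3 and Calcr were last. In myotubes Sdc4 (260 ± 119 TPM) overlapped Ncam1 (124 ± 41.6 TPM), and the ranges went on overlapping through Cd34, Cxcr4 and Vcam1 to Spry1. Spry1, at 37.6 ± 20.3 TPM, was above the range of Sdc3 (10.3 ± 3.87 TPM) there, and Pax7 was at 4.43 ± 3.41 TPM.

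Replicate 1 differed from replicates 2 and 3 in the same direction in both groups for 3 of the 8 tested markers. Pax7 and Cxcr4 were at least 2-fold lower, and Cd34 at least 2-fold higher, in replicate 1 than in either other library of its group, a limit set after these values were seen. Across all 15932 tested genes 137 (0.86%) were lower and 214 (1.34%) higher in replicate 1 by this measure. Among 123 tested genes of the 8 related lists, the lower ones were Fgfr4, Myod1, Sox8, Spry2 and St8sia2, and the higher ones were Adm2 and Fgf7. The labels do not say what a replicate number marks, so culture, passage and library preparation cannot be told apart.

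**Figure D5:**
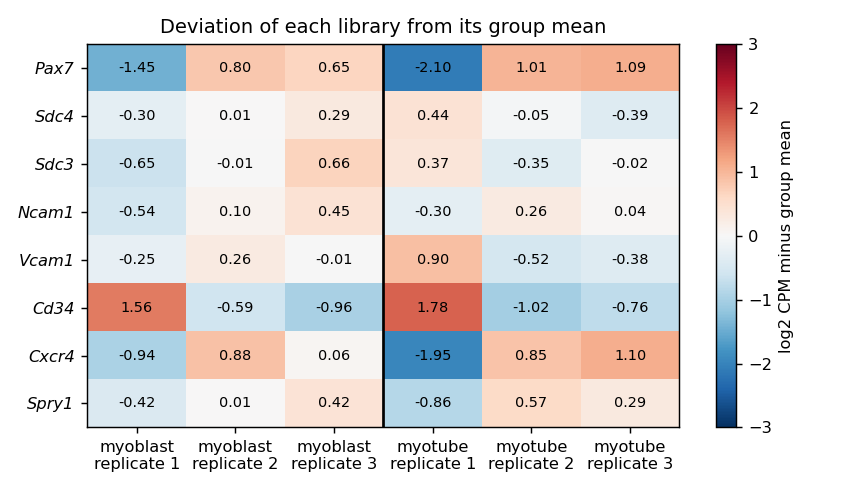
Log2 CPM of the 8 tested marker genes (vertical axis) minus the mean of the library's own group, for each of the 6 libraries (horizontal axis), with the value printed in each cell and coloured from blue (lower) to red (higher). Replicate 1 of both groups is low for Pax7 (-1.45 and -2.10) and Cxcr4 and high for Cd34 (1.56 and 1.78).

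Over all 6 libraries the gene with the log2 CPM profile nearest to that of a tested marker was Sgk3 for Pax7 (Pearson r = 0.998), Pacs1 for Sdc3 (0.998), Nubpl for Vcam1 (0.992), Pdpk1 for Ncam1 (0.999), Loxl4 for Cd34 (0.996), Ppp1r13b for Cxcr4 (0.988) and Reep1 for Spry1 (0.9996). These are descriptions over 6 libraries that share 2 groups, and with 15932 genes compared, values this high carry no test.

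The remaining lists set the markers beside other genes of satellite cells. Of 22 other satellite cell and myoblast genes 19 were tested, 2 rose and 5 fell, beside 20.5% and 19.6% of all genes. The median log2 fold change of the list was 0.16. The risers were Itga7, the laminin-binding integrin subunit used to isolate satellite cells (1.85 ± 0.30), and Des, the muscle intermediate filament desmin (1.83 ± 0.40). Met, the receptor of hepatocyte growth factor, fell from 267 ± 37.5 to 138 ± 34.4 CPM (SD, n = 3), by 0.96 ± 0.23 on the log2 scale (adjusted p = 0.0123, edgeR). Lmna, the lamin A and C gene, fell by 1.26 ± 0.23. Cdh15, the M-cadherin gene, was among the 12 that did not pass, though it was called higher without myotube replicate 1 (1.06, adjusted p = 0.00505, edgeR).

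Among 22 genes linked to quiescence 20 were tested, 8 rose and 1 fell, beside 20.5% and 19.6% of all genes. The median log2 fold change of the list was 0.45. Cdkn1a, the cell cycle inhibitor p21, was at 64.8 ± 3.67 CPM in myoblasts and 171, 605 and 622 CPM in myotubes, a log2 fold change of 2.84 ± 0.46 (adjusted p = 0.00244, edgeR). The pocket protein gene Rbl2 (p130) rose by 1.11 ± 0.19 and its relative Rbl1 (p107) fell by 1.90 ± 0.40, or by 2.59 without myotube replicate 1. The other risers were Cdkn1c, Rb1, Foxo3 and Tnfrsf11b, and the Notch pathway genes Heyl and Notch3. Heyl was at 1.12, 2.34 and 0.610 CPM in myoblasts and 0.851, 16.5 and 17.9 CPM in myotubes, so that the groups overlapped. Its call (3.09, adjusted p = 0.0382, edgeR) was lost with the replicate block (2.48, 0.0709), with 3 other settings (0.0522 to 0.201) and without any single library other than myotube replicate 1 (0.0602 to 0.118). The call of Notch3 was lost without any of 4 single libraries (0.0742 to 0.11), and that of Cdkn1c without myotube replicate 3 (0.0618). Over the 8 related lists together, 32 of 123 tested genes rose and 25 fell, beside 20.5% and 19.6% of all tested genes.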

How the data were processed

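Per the submitters' processing notes, the build was mm10 and the tools included the aligner STAR 2.5.1b, the counter featureCounts 1.5.1 and DESeq2 1.18.1, with no roles stated. Per the labels' protocols, the C2C12 libraries were made with a stranded total RNA kit. The deposited C2C12 table holds raw counts per gene, with gene lengths. The authors' normalised table is a scaled signal, the raw count times 1 factor per library (0.522 to 1.89, checked where counts exceeded 50). Whether counting used strand is not given in the sources used here, and genes that overlap another are uncertain. The snoRNA tables were not used here.

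The raw counts were tested with edgeR 4.0.16 under R 4.3.3: TMM scaling, filterByExpr by group, a robust quasi-likelihood fit without covariates, and Benjamini-Hochberg adjustment over all 15932 tested genes at 0.05. SE is the size of the log2 fold change over the root of its F statistic, and 95% intervals use the t distribution with the test's degrees of freedom. TPM was computed from counts and lengths. The code was tested on simulated data. No pair of libraries of a group agreed within sampling noise (chi-square per degree of freedom at least 102.8). Same-numbered libraries deviated together, with correlations of 0.232, 0.189 and 0.17 over tested genes, each above the limit of 0.1. The replicate numbers, which come from the labels, were therefore used as a block in an alternative fit and for the differences by pair. The main fit did not use them. A differently numbered pair, myoblast 3 with myotube 2, had a higher correlation (0.358), and the labels do not say that a number marks a shared culture or day. The alternatives were 3 other scalings, DESeq2 1.42.0, limma-voom (limma 3.58.1), 2 other filters, the replicate block and leaving out each library, and, added later, leaving out replicate 1 in both groups.

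The members and lists were chosen with earlier results of these data known. Named were all 10 members, from each related list the 2 called genes of highest mean level in each direction, and the gene with the nearest profile to each tested member (that of Sdc4 is not reported here); others were named after their values were seen. Upstream sequences, gene positions and overlaps are from RefSeq GRCm38.p6, in which 7 of the 10 members matched an upstream sequence.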

Additional observations from a re-analysis of the deposited data

How the results depend on the processing

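Among the 8 tested markers, Spry1 and Ncam1 were called higher under every alternative, and no planned setting called a further marker higher. The number called lower, 1 over all libraries, was 2 with the replicate block, which added Pax7, and lay between 0 and 1 when single libraries were left out. Without replicate 1 in both groups, chosen after seeing the data, it was 3 (Pax7, Sdc3 and Sdc4), with Cxcr4 called higher, and in the related lists 45 genes were higher in place of 32 and 45 lower in place of 25, beside 29.1% and 27.6% of all genes in place of 20.5% and 19.6%. Vcam1 turned to -0.073 under that setting, and without single libraries Cd34 ranged from -1.08 to 1.65. The cause was not tested. The replicate block changed no call of a marker other than that of Pax7. In the related lists it ended the calls of Sulf2 and Heyl and added others. There 34 genes were higher in place of 32 and 32 lower in place of 25, beside 22.4% and 20.9% of all genes.

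Scaling by library size alone moved the median over all genes from 0.06 to -0.065 (log2) and turned no marker. The median of the other satellite cell and myoblast genes turned to -0.037 with DESeq2 and -0.025 with no filter, and it ranged from -0.013 to 0.28 without single libraries. That of the VCAM1 and NCAM1 partners turned to 0.16 and 0.18 with DESeq2 and without a filter. That of the CXCR4 and calcitonin receptor axes ranged from -0.021 to 0.39 without single libraries. That of the PAX cofactors moved from -0.53 to -0.13 with a mean count of at least 50, to -0.26 without myotube replicate 1 and to -0.16 without replicate 1 in both groups, and that of the Sprouty and ERK feedback genes from -0.09 to -0.36 in the last setting. Ackr3 was also called by DESeq2 (adjusted p = 0.0325) and limma-voom (0.0385), with library size scaling (0.033) and without a filter (0.028). Mki67 lost its call without a filter (0.0801).

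By raw counts, not divided by length, the mean share of Sdc3 was 6.81% in myoblasts and 1.74% in myotubes, and that of Sdc4 in myoblasts was 42.8%. The direction was the same for both. Pax3 and Calcr had too few counts to be tested, and whether deeper libraries would change this was not tested.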
